A study of Arabidopsis thaliana with 64 samples.

Results

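The glycolysis enzymes of the plastid were followed as 10 nuclear genes, picked by locus from the 32833 genes of the count tables and not by any measured value. The choice was made with earlier results of these data known. They were PDE345 (AT2G01140, a plastid fructose-bisphosphate aldolase also called FBA3), TIM (AT2G21170, plastid triose-phosphate isomerase), GAPCP-1 (AT1G79530) and GAPCP-2 (AT1G16300), which encode the plastid NAD-dependent glyceraldehyde-3-phosphate dehydrogenases of glycolysis, PGK1 (AT3G12780, a chloroplast phosphoglycerate kinase), ENO1 (AT1G74030, plastid enolase), the plastid pyruvate kinase subunits PKP-ALPHA (AT3G22960), PKP-BETA1 (AT5G52920) and PKp3 (AT1G32440), and CUE1 (AT5G33320), the phosphoenolpyruvate translocator of the inner envelope, also called PPT1. All 10 passed the filter on low counts in every comparison. RNA was sequenced from pooled whole Arabidopsis seedlings of the T3 generation in the Col-0 background, each line carrying CHA19, ENAP1, LBD16 or WRI3 fused to the glucocorticoid receptor (GR) under the 35S promoter. Each GR-TF had 4 independent insertion lines, and each line had 2 plates with dexamethasone (Dex) and 2 with mock treatment, which made 64 libraries, 8 per GR-TF and treatment. Plates were kept dark for 5 days, after which the seedlings spent 24 h on 10 µM Dex or on mock plates, still in the dark. Dex releases the fusion protein into the nucleus. All lines carried a GR-TF, so effects of Dex as a drug and of the induced factor cannot be told apart, and whole seedlings cannot tell fewer cells of a type apart from less RNA per cell.

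Plants run glycolysis in the cytosol and, with separate nuclear genes, in the plastid. In heterotrophic plastids the pathway ends at pyruvate kinase, whose product feeds the plastid pyruvate dehydrogenase and, through acetyl-CoA, fatty acid synthesis. Where plastid enolase is scarce, phosphoenolpyruvate can instead be imported from the cytosol by CUE1. In developing Arabidopsis seeds the AP2-type factor WRINKLED1 (WRI1) activates several of these genes through a promoter element named the AW-box, and WRI3 is a close relative of WRI1.

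The AW-box, written C N T N G, then 7 N, then C G, gives the sequence context of the members, because WRI3 is the factor here that belongs to the WRINKLED group. Both strands were searched in the window from 150 bases before to 150 bases after the annotated start of each gene in RefSeq's TAIR10.1. A match was found in 5 of the 10 members and in 16.4% of 27443 protein-coding genes. In a window of 250 bases before to 50 after the start it was found in 4 of 10 members and in 11.9% of those genes. The first window was picked after the matches had been seen. Each match is given below with 4 bases on either side, in the direction of the gene, with the 14 bases of the motif in capitals.
PKP-ALPHA, chr3:8139269-8139290, 88 bases after the start: cacaCTTCGATATCTCCGcctt
PKP-BETA1, chr5:21463528-21463549, 65 bases after the start, motif on the other strand: tcttCGATACGAACTAAGcact
PKP-BETA1, chr5:21463556-21463577, 93 bases after the start: ccgcCTTCGTAAGTTCCGccga
ENO1, chr1:27842199-27842220, 84 bases before the start, motif on the other strand: gtggCGGCGGCGGCGACGggcg
ENO1, chr1:27842017-27842038, 98 bases after the start: actcCTTAGTTTTCATCGcctc
GAPCP-2, chr1:5574130-5574151, 123 bases before the start: aaatCATGGGCCTTGACGccga
GAPCP-2, chr1:5574193-5574214, 60 bases before the start: aaccCTTAGATCTCATCGcaaa
CUE1, chr5:12588732-12588753, 5 bases before the start and across it, motif on the other strand: aaggCGGACTTTTCAACGaagg
The ENO1 match before the start lies in a run of GC-rich repeats, whereas the match after its start and the nearer GAPCP-2 match begin with the same letters, CTTAG. PKP-BETA1, ENO1 and GAPCP-2 each held 2 matches in the window. A match is a description of the letters and not a measured binding site.

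The upstream stretches of ENO1 and GAPCP-2 are shown because these genes had the widest spread among the libraries for their level and carry matches before the start. Both are 250 bases ending at the base before the annotated start (TAIR10.1, RefSeq), in the direction of the gene, with AW-box matches in capitals.
ENO1, chr1:27842133-27842382, minus strand: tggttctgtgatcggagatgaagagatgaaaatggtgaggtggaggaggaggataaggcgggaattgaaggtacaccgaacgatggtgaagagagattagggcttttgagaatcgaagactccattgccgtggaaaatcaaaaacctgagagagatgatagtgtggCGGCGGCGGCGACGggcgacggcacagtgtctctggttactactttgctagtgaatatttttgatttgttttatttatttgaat
GAPCP-2, chr1:5574007-5574256, plus strand: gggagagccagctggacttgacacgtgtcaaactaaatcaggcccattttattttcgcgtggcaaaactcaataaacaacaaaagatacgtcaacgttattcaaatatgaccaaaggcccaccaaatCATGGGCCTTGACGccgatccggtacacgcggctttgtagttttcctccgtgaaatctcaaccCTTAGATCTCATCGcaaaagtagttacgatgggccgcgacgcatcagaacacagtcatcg
The ENO1 stretch holds 1 match and the GAPCP-2 stretch 2. Of the related lists, 6 of 7 plastid pyruvate dehydrogenase genes, 9 of 18 plastid fatty acid synthesis genes, 2 of 13 other plastid glycolysis and transporter genes and 4 of 18 cytosolic glycolysis genes held a match in the window of 150 bases to either side of the start. In the window of 250 bases before to 50 after the start these counts were 3, 3, 5 and 2, so they depended on the window.

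The libraries held 2059928 to 7968970 counts (median 5292626). The gene of each induced factor was higher in its own lines than in every line of the other GR-TFs with the exception of ENAP1, whose own lines started at 111 CPM (read counts scaled by the TMM-adjusted library size) and the others reached 119. WRI3 (AT1G16060, ADAP in RefSeq) was at 35.3 to 219 CPM in its mock libraries, 36.6 to 205 with Dex and 0.198 to 2.45 elsewhere, and the reads do not separate the transgene from the native gene. WRI1 was at 2.22 to 8.87 CPM in all 64 libraries. In 5 libraries the median correlation of log2 CPM with the other libraries of the same GR-TF was 0.748 to 0.906, against 0.941 to 0.983 in the other 59. These 5, referred to as the libraries that stand apart and picked out after the data had been seen, were GR-CHA19 line 7 Dex replicate 1, GR-ENAP1 line 1 mock replicate 1, GR-ENAP1 line 2 Dex replicate 1, GR-LBD16 line 3 mock replicate 1 and GR-WRI3 line 8 Dex replicate 1. The labels describe dark-grown seedlings. Summed light-harvesting and Rubisco small subunit genes (9 genes, none at 0 in any library) stood at 6885 to 21041 CPM in the 59 libraries and 856 to 11892 in the 5, and PORA, the protochlorophyllide reductase of etiolated tissue, at 28.6 to 1442 and 72.4 to 1742.

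The members spanned a wide range of levels, compared here as CPM per kilobase of exon. PKP-ALPHA was the most abundant, with a median over the 64 libraries of 293 CPM per kb, followed by PKP-BETA1 (218), TIM (142), PGK1 (112), PDE345 (61.6), CUE1 (42.1), GAPCP-1 (21.8), PKp3 (8.01), GAPCP-2 (5.54) and ENO1 (4.19). The ranges over the 64 libraries of neighbours in this order overlapped, except those of GAPCP-1 (16.2 to 58.6) and PKp3 (5.40 to 10.9). PKP-ALPHA and PKP-BETA1 encode the alpha and beta subunits of one plastid pyruvate kinase, and their ratio per kb was 1.32 at the median and stayed between 1.12 and 1.72 in the 64 libraries. PKp3, the alternative beta subunit, was far lower, with a median ratio of PKP-BETA1 to PKp3 of 27.7. GAPCP-1 was above GAPCP-2 in every library, at a median ratio of 3.89 (range 2.03 to 7.03).

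Cytosolic counterparts differed from step to step. At the enolase step the cytosolic LOS2 exceeded plastid ENO1 by a median ratio of 31.5 per kb (19.1 to 56.7), and at the dehydrogenase step GAPC1 exceeded GAPCP-1 by 9.29 (5.44 to 18.4). The cytosolic aldolase FBA8 was 2.43 times PDE345 at the median (1.78 to 4.27). At the median the cytosolic TPI stood at 0.866 of plastid TIM and the cytosolic PGK at 0.598 of PGK1. Both of these orders were reversed in some libraries. TPI to TIM ran from 0.63 to 1.30 in the 59 libraries that do not stand apart and from 1.33 to 2.41 in the 5 that do. PGK to PGK1 ran from 0.393 to 4.59 over the 64 libraries. PGK exceeded PGK1 only among the 5 that stand apart, where the median ratio was 0.847. PPT2, the other phosphoenolpyruvate translocator gene, was at 0 in most libraries and reached at most 0.00977 of CUE1.

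Some members share exonic bases with another gene. ENO1 overlaps the antisense gene AT1G74035, which had 0 counts in all libraries, by 177 exon bases, and AT1G74040, also antisense and with a median of 91.0 counts, by 24. GAPCP-1 overlaps the antisense gene AT1G79529 by 317 exon bases, with 0 to 8 counts against a median of 222.5 for GAPCP-1, and CUE1 overlaps AT5G33330 by 66 bases with 0 or 1 count. PKp3, PGK1 and PDE345 share 16 to 27 exon bases with a neighbour. The neighbour of PKp3, the antisense AT1G32450, had a median of 902.5 counts against 92 for PKp3. That of PGK1, the antisense AT3G12775, had 0 or 1 count, and that of PDE345, AT2G01130 on the same strand, a median of 166.5. The libraries were not strand-specific, so in the shared bases reads of a member and of the other gene, antisense or not, cannot be told apart. GAPCP-1 and GAPCP-2 have no stretch of 50 exon bases in common, whereas CUE1 shares stretches of that length with AT1G43310 and AT3G30885 as well as AT5G33330.

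Across the 64 libraries ENO1 ran from 4.29 CPM through a median of 8.26 to 34.6, and GAPCP-2 from 6.68 through 9.16 to 40.7. GAPCP-1 ran from 31.1 through 41.8 to 113. The 5 libraries that stand apart were the highest of all for ENO1, at 17.4 to 34.6 CPM against 4.29 to 16.4 in the other 59, and for GAPCP-2, at 19.7 to 40.7 against 6.68 to 17.5. For both genes these groups of libraries did not overlap, and since the 5 were chosen on correlation over all genes this is a description without a test. The share of all genes that separate the groups in this way is not given here, so the separation is not shown to be particular to these genes. PKP-ALPHA went the other way, at 174 to 489 CPM in the 5 and 369 to 979 in the 59. PKp3, the minor beta subunit, had a narrow range, at 11.8 to 23.7 CPM over all libraries.

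**Figure D1:**
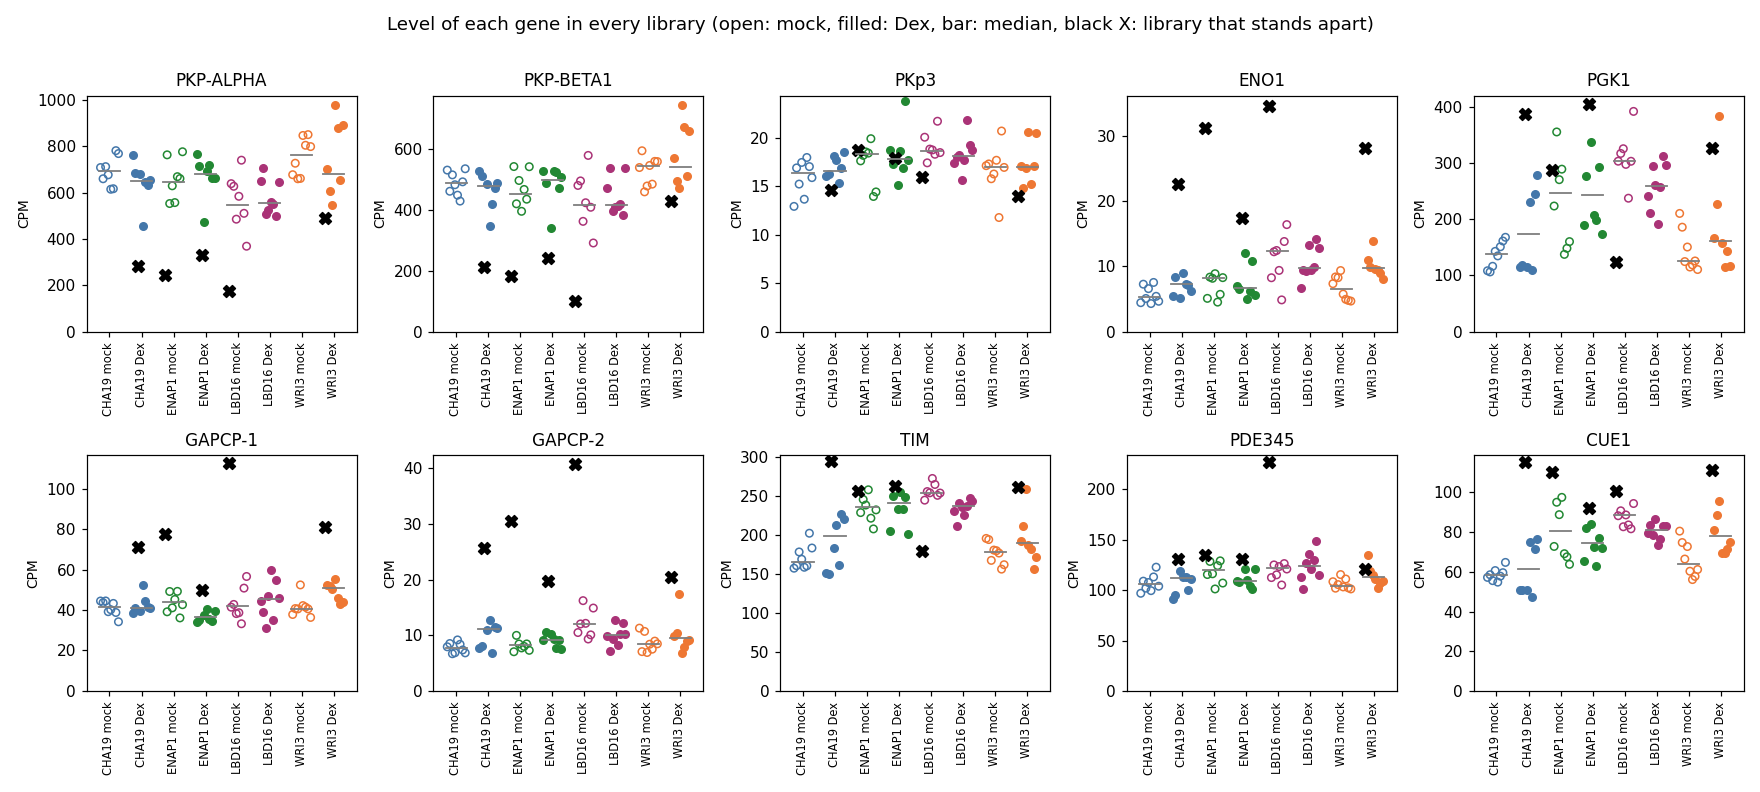
Level of each of the 10 members in each of the 64 libraries, as CPM on axes that start at 0, by GR-TF and treatment, with each point a library and the libraries that stand apart marked. ENO1 in the 5 marked libraries lies at 17.4 to 34.6 CPM, above the 4.29 to 16.4 CPM of the other 59.

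Beside the second library of the same line and treatment, PKP-ALPHA and PKP-BETA1 were lower and ENO1, GAPCP-1, GAPCP-2 and CUE1 higher in each of the 5. In GR-LBD16 line 3 with mock treatment, PKP-BETA1 was at 99.6 CPM in replicate 1 and 481 in replicate 2, a 4.83-fold difference, and ENO1 at 34.6 and 8.24. GAPCP-1 was at 113 and 41.4 CPM in that pair, and PDE345, the aldolase, at 227 and 112. The difference in PGK1 changed direction between the pairs. It was lower in this library, at 125 CPM against 304, and higher in GR-CHA19 line 7 Dex replicate 1, at 388 against 115. In GR-ENAP1 line 1 with mock treatment ENO1 was at 31.2 CPM in replicate 1 and 5.09 in replicate 2, and GAPCP-2 at 30.5 and 7.04.

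Genes induced by carbon starvation moved with these levels. The summed level of the dark-inducible ASN1, SEN1 and DIN10 was 753 to 4097 CPM in the 5 libraries and 2839 to 13891 in the other 59, with none of the 3 genes at 0 in any library. Root hair genes (4 genes, 3 of which were at 0 in some libraries) summed to 23.8 to 145 CPM in the 5 and 0.818 to 36.6 in the others. The part of either list in the members' levels was not tested. As a description over 64 libraries, which share lines and plates, PKP-ALPHA had a Pearson correlation on log2(CPM + 1) of 0.943 with the starvation sum and ENO1 one of -0.839, and over the 59 libraries these were 0.823 and -0.688. PGK1, TIM and CUE1 ran with PORA, at 0.944, 0.877 and 0.847 over the 64 libraries and 0.936, 0.858 and 0.886 over the 59. They were also lower where the starvation sum was higher, at -0.530, -0.535 and -0.720 over the 64 and -0.817, -0.774 and -0.711 over the 59, and PKP-ALPHA had -0.500 and -0.670 with PORA. PKp3 had weaker correlations than these, at -0.063 with the starvation sum and 0.284 with PORA over the 64. Over the 59 they were -0.311 and 0.374.

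**Figure D2:**
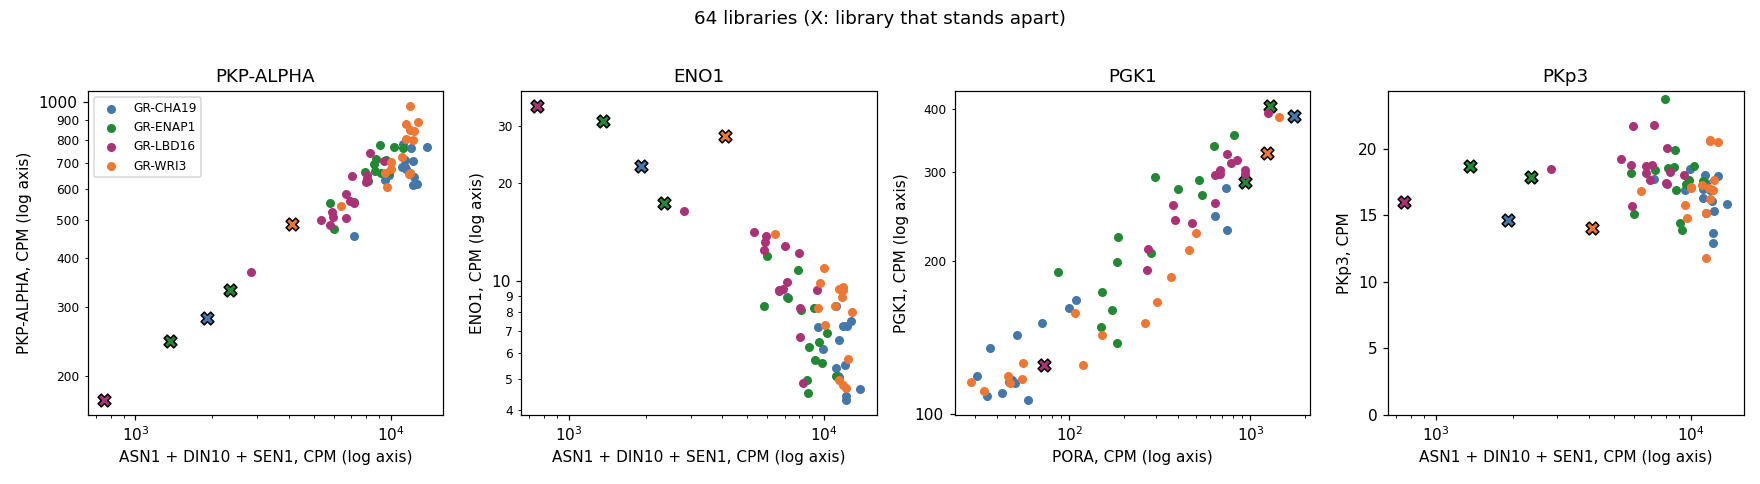
Levels of PKP-ALPHA, ENO1 and PKp3 against the summed level of ASN1, DIN10 and SEN1, and of PGK1 against PORA, in CPM on log axes except for the linear vertical axis of PKp3, 1 point per library, with the 5 libraries that stand apart drawn as crosses. PKP-ALPHA is higher where the starvation sum is higher (Pearson r of 0.943 over 64 libraries), ENO1 lower (-0.839), and PGK1 higher where PORA is higher (0.944).

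Among the members, over the 32 means of line and treatment, PKP-ALPHA and PKP-BETA1 had a Pearson correlation of 0.957, and PGK1 had 0.904 with TIM and 0.833 with CUE1. PKP-ALPHA was negatively related to ENO1 (-0.738) and GAPCP-2 (-0.828). The genes most like PKP-BETA1 were CAC3, the alpha carboxyltransferase subunit of plastid acetyl-CoA carboxylase (0.969), PKP-ALPHA, and AT2G34590, an E1 beta subunit of plastid pyruvate dehydrogenase (0.942). AT2G34590 was also the gene most like PKP-ALPHA (0.962), followed by PKP-BETA1 and LRB1 (0.952). CUE1 was most like EMB3147 (AT2G30200, the plastid malonyl-CoA to acyl carrier protein transferase, 0.925), PPR2 (0.921) and AT4G14360 (0.918).

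The other members had other neighbours over the same 32 means. PGK1 was most like AT4G01150 (0.984) and the plastid ribosomal protein genes EMB3113 and RPL12-A (0.978 each), and TIM most like BAM2 (0.958), AT4G11100 (0.956) and MAP65-1 (0.953). ENO1 was most like P58IPK (0.904) and BIP1 (0.901), which encode chaperones of the endoplasmic reticulum, and ASP1 (0.898), a mitochondrial aspartate aminotransferase. GAPCP-2 was most like AVP1, the vacuolar proton-pumping pyrophosphatase, MFP2, a peroxisomal enzyme of beta-oxidation (0.925), and ROC5 (0.917). GAPCP-1 had lower values, with PMSR2 (0.830), TRA2 (0.820) and Cpn60beta3 (0.813) first. PDE345 was most like AT1G01300 (0.903), RGL2 (0.899) and AT5G08570 (0.898). PKp3 had no close neighbour, the first being AT1G54820 (0.648), AT4G35987 (0.609) and KEA6 (0.603). Without the 5 libraries that stand apart, 11 of these 30 genes were still among the 3 most like the same member, 8 of them at the same rank, and in PKP-ALPHA and PKP-BETA1 all were the same.

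The next question was whether Dex induction of each factor changed these genes. In GR-WRI3, no member passed the adjusted threshold of 0.05 (edgeR quasi-likelihood test with Benjamini-Hochberg adjustment over 18311 genes), against 0.0273% of all genes tested, which is 5 genes. At an unadjusted p under 0.05 there were 5 members, ENO1, CUE1, GAPCP-1, PGK1 and TIM, all higher with Dex, where 15.5% of all genes stood at that level. DESeq2 called 1 member, ENO1, and the study's own model, a glm.nb regression of each gene, called 6, where it called 24.1% of all genes. With line 8 Dex replicate 2 left out, so that the library that stands apart was alone for its line and treatment, edgeR also called 6 members, with 25.4% of all genes called. The members' median log2 fold change was 0.26, against 0.0085 over all genes tested. Without the library that stands apart the members' median was 0.15. Of the members 9 of 10 were higher with Dex, against 9435 of the 18311 genes tested.

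ENO1, the enolase, had the largest estimate. In line 10 its mock libraries were at 8.25 and 9.34 CPM and its Dex libraries at 9.84 and 13.9, and in line 17 they were at 5.74 and 4.94 with mock and 9.58 and 9.46 with Dex. Line 21 had 4.77 and 4.67 CPM with mock and 8.89 and 8.02 with Dex, and line 8 had 7.33 and 8.36 with mock and 28.0 and 10.9 with Dex. Within each of the 4 lines both Dex libraries lay above both mock libraries, although across lines the ranges overlapped, and the highest value was that of the library that stands apart. The log2 fold change was 0.87 (SE 0.18) with an adjusted p of 0.288 by edgeR's quasi-likelihood test. Without that library it was 0.65 (SE 0.13, adjusted p = 0.107). DESeq2 gave 0.86 (adjusted p = 0.0483), which the 1 call above rests on.

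CUE1, the translocator, showed the same order with a smaller step. Line 10 had 66.4 and 72.7 CPM with mock and 88.6 and 95.8 with Dex, and line 17 had 60.3 and 56.1 with mock and 69.6 and 69.3 with Dex. Line 21 had 57.7 and 61.1 CPM with mock and 71.7 and 74.8 with Dex, and line 8 had 80.5 and 74.7 with mock and 111 and 81.1 with Dex. Again both Dex libraries exceeded both mock libraries in each line, by less than 1 CPM in the nearest pair of line 8. How many of all genes show this order in every line is not given here. The order is therefore not shown to be particular to ENO1 and CUE1. The log2 fold change was 0.32 (SE 0.074, adjusted p = 0.301 by edgeR), and 0.26 (SE 0.059, adjusted p = 0.193) without the library that stands apart.

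**Figure D3:**
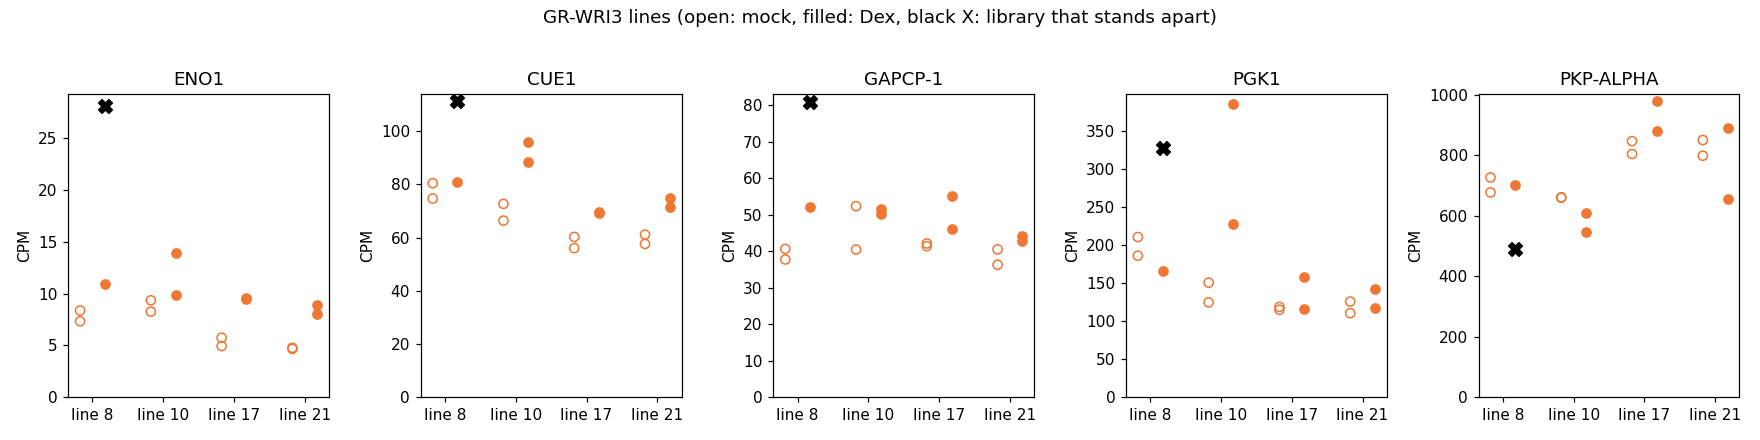
Levels of ENO1, CUE1, GAPCP-1, PGK1 and PKP-ALPHA in the 16 GR-WRI3 libraries (CPM), by line, with open points for mock, filled points for Dex and a black cross for the library that stands apart. In all 4 lines both Dex libraries of ENO1 and of CUE1 lie above both mock libraries, with ENO1 at 4.67 to 9.34 CPM with mock and 8.02 to 28.0 with Dex. How many of all genes show this order is not given.

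The dehydrogenase and kinase genes overlapped more. GAPCP-1 was at 36.3, 40.6 and 52.4 CPM (lowest, median and highest of 8) with mock and 42.9, 51.0 and 80.9 with Dex. Its line means were higher with Dex in 4 of 4 lines, with a log2 fold change of 0.35 (SE 0.096, adjusted p = 0.301), yet the highest mock library lay above the median Dex library. PGK1 was at 111, 125 and 211 CPM with mock and 116, 162 and 385 with Dex, with a log2 fold change of 0.46 (SE 0.15, adjusted p = 0.301) that was largest in line 10, where the means were 138 and 306 CPM. In that line PORA was at 119 and 261 CPM with mock and 501 and 1442 with Dex, and its part in the PGK1 values was not tested. GAPCP-2 had a log2 fold change of 0.33 (SE 0.18) with 3 of 4 lines higher, which was 0.16 without the library that stands apart. TIM had 0.19 (SE 0.080) with 4 of 4 lines higher.

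The pyruvate kinase subunits had estimates near 0. PKP-ALPHA was at 660, 763 and 851 CPM with mock and 489, 679 and 979 with Dex, so that the Dex libraries reached both lower and higher than the mock libraries, and its log2 fold change was -0.09 (SE 0.10, higher in 1 of 4 lines). PKP-BETA1 was at 460, 544 and 595 CPM with mock and 429, 542 and 745 with Dex, with a log2 fold change of 0.10 (SE 0.091, 3 of 4 lines). In line 17 alone its Dex libraries, 745 and 675 CPM, lay clear of the mock libraries, 547 and 485. PKp3 had 0.03 (SE 0.11) and PDE345 0.11 (SE 0.061). The matches printed above stand in members at both ends of this order, ENO1 with the largest estimate and PKP-ALPHA with the lowest. This holds for the window picked after the matches had been seen. In the window that reaches further before the start, PKP-ALPHA and PKP-BETA1 held no match. The members with a match there were ENO1 (0.87), GAPCP-1 (0.35, match not printed above), GAPCP-2 (0.33) and CUE1 (0.32). PGK1, at 0.46, held none in either window. A link between matches and estimates was not tested.

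Other lists of the same carbon route in GR-WRI3 can be set beside the members. Of 18 plastid fatty acid synthesis genes, BCCP2, a biotin carrier subunit of acetyl-CoA carboxylase, rose by 0.86 on the log2 scale (SE 0.10, adjusted p = 0.0106) and ACP2, an acyl carrier protein, by 0.49 (SE 0.064, adjusted p = 0.0180), with a list median of 0.30. In this list 13 genes had an unadjusted p under 0.05 in edgeR, where 15.5% of all genes stood. None of 7 plastid pyruvate dehydrogenase genes passed the adjusted threshold in edgeR, 6 had an unadjusted p under 0.05, and their median was 0.21. Among 12 other plastid glycolysis and transporter genes tested, 0 passed in edgeR, 6 had an unadjusted p under 0.05, and the median was 0.21. The 17 cytosolic glycolysis genes had 0 passing in edgeR, 7 at the unadjusted level and a median of 0.25, close to the 0.26 of the members. Higher with Dex were 15 of 18 fatty acid synthesis, 6 of 7 pyruvate dehydrogenase, 10 of 12 other plastid and 16 of 17 cytosolic genes. Over all genes tested, 9435 of 18311 were higher. In GR-CHA19 the lists had 13 of 18, 3 of 7, 8 of 12 and 16 of 17 genes higher in the same order, beside 8 of 10 members and 9561 of 18272 genes. The cytosolic median there was 0.28, so the cytosolic rise was not particular to GR-WRI3. In GR-ENAP1 and in GR-LBD16, 2 of 17 cytosolic genes were higher.

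With the other factors edgeR and DESeq2 called no member, whereas glm.nb called members in GR-CHA19 and GR-LBD16. In GR-CHA19, edgeR called 0 of 10 members, against 0% of 18272 genes, with 2 members (GAPCP-2 and PGK1) and 14% of all genes at an unadjusted p under 0.05, while DESeq2 called 0 and glm.nb 4, with 29.1% of all genes called by glm.nb. Without line 7 Dex replicate 2, which left the library that stands apart alone for its line and treatment, edgeR called 8 members and 45.1% of all genes. ENO1 was at 4.29, 5.23 and 7.52 CPM with mock and 5.08, 7.23 and 22.6 with Dex, a log2 fold change of 0.61 (SE 0.28) that was 0.23 (SE 0.19) without line 7 Dex replicate 1, the library that stands apart. GAPCP-2 had 0.58 (SE 0.19, 3 of 4 lines higher) and PGK1 0.51 (SE 0.23, 4 of 4), which became 0.38 and 0.22 without it. The median of the members was 0.18 with that library and 0.08 without.

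In GR-ENAP1, edgeR called 0 of 10 members and 0% of 18506 genes, with 1 member (GAPCP-1) and 1.81% of all genes at an unadjusted p under 0.05, and DESeq2 and glm.nb called 0 members. GAPCP-1 was at 36.1, 43.9 and 77.8 CPM with mock and 34.3, 36.5 and 50.05 with Dex, lower with Dex in 4 of 4 lines, at -0.29 (SE 0.13) and -0.20 (SE 0.088) without the 2 libraries that stand apart. In GR-LBD16, edgeR called 0 of 10 members and 0% of 18706 genes, with 1 member (GAPCP-2) and 6.31% of all genes at the unadjusted level, while DESeq2 called 0 members and glm.nb 2, beside 12.4% of all genes with glm.nb. Without line 3 mock replicate 2, the pair of the library that stands apart, edgeR called 4 members and 44.5% of all genes. GAPCP-2 was at 9.33, 12.1 and 40.7 CPM with mock and 7.13, 10.0 and 12.7 with Dex, and its log2 fold change of -0.57 (SE 0.25, lower in 4 of 4 lines) was -0.24 (SE 0.14) without line 3 mock replicate 1. The sign of the ENO1 estimate turned without the libraries that stand apart in both GR-TFs, with GR-ENAP1 going from -0.17 to 0.23 and GR-LBD16 from -0.31 to 0.03.

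**Figure D4:**
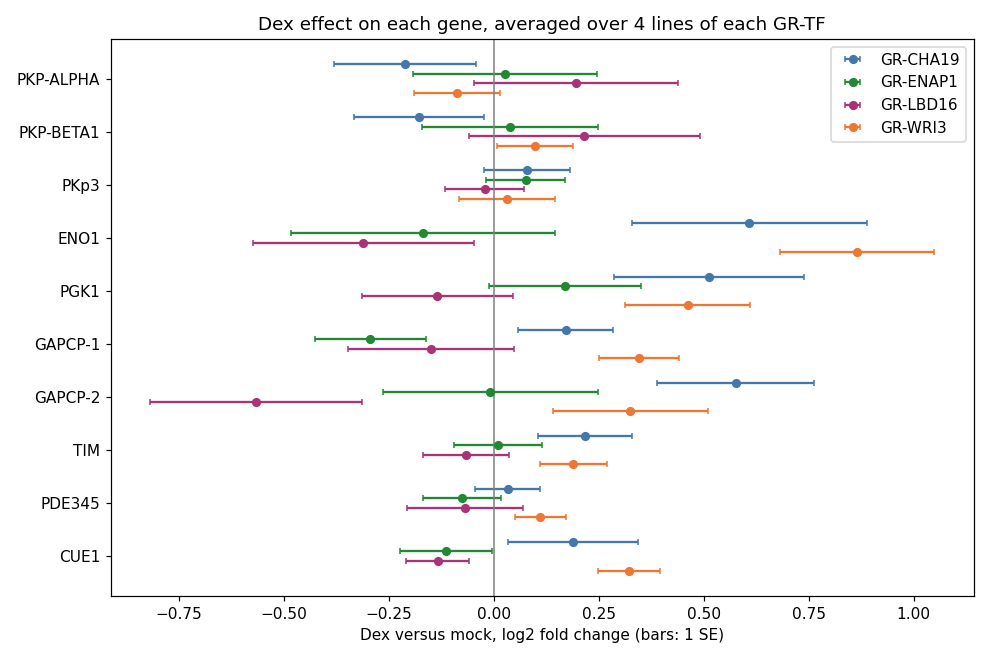
Log2 fold change of Dex against mock for each member in each GR-TF, averaged over the 4 lines from all 16 libraries of the GR-TF, with bars of 1 standard error. ENO1 in GR-WRI3 has the highest value, at 0.87, and GAPCP-2 in GR-LBD16 the lowest, at -0.57.

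Whether the Dex effect differed between lines of a GR-TF was tested with the line by treatment term. It called 0 of 10 members, against 0% of all genes, in each of GR-CHA19, GR-ENAP1, GR-LBD16 and GR-WRI3 (edgeR quasi-likelihood F-test), with 0 members at an unadjusted p under 0.05 in each, where 2.31% to 5.12% of all genes stood. glm.nb called 2, 2, 0 and 1 members in that order, and 7.65%, 26.1%, 8.3% and 4.78% of all genes. edgeR called 7 in GR-CHA19 without line 7 Dex replicate 2, 5 in GR-ENAP1 without line 1 mock replicate 2, 7 in GR-LBD16 without line 3 mock replicate 2 and, when line 8 Dex replicate 2 was left out, 1 in GR-WRI3, each the pair of a library that stands apart. In these settings 35.2%, 35%, 47.7% and 5.4% of all genes were called. The test of GR-WRI3 against the mean of the other GR-TFs, which answers whether the WRI3 response was different, called 0 of 10 members and 0% of 19541 genes (edgeR), with 3 members at an unadjusted p under 0.05, against 3.1% of all genes. These were CUE1, with a difference in log2 fold change of 0.34 (SE 0.12), GAPCP-1 with 0.43 (SE 0.17) and ENO1 with 0.82 (SE 0.33), all with an adjusted p of 0.869 by edgeR's quasi-likelihood test. Without the libraries that stand apart the differences were 0.31 (SE 0.087), 0.29 (SE 0.10) and 0.49 (SE 0.19).

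Levels in mock-treated seedlings were compared among the GR-TFs with the 2 replicates of a line summed, so that 4 lines stood for each GR-TF. The members called by edgeR's quasi-likelihood F-test were 4 of 10, while 38.4% of 19303 genes were called, so the share among the members was near that of all genes. The 4 were TIM (adjusted p = 0.00442), CUE1 (0.00500), PGK1 (0.00591) and ENO1 (0.0422). TIM was at 172 ± 16.6 CPM in GR-CHA19 and 177 ± 14.3 in GR-WRI3 (SD, n = 4 lines), while GR-ENAP1 had 236 ± 10.3 and GR-LBD16 243 ± 28.9. Every GR-ENAP1 and GR-LBD16 line of TIM, at 202 to 268 CPM, lay above every GR-CHA19 and GR-WRI3 line, at 160 to 195. This grouping of the GR-TFs follows the observed levels and was not itself tested. How many of all genes split this way is not given here, so the split is not shown to be particular to TIM.

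PGK1 and CUE1 had the same split with some overlap. PGK1 was at 136 ± 23.8 CPM in GR-CHA19, 142 ± 38.3 in GR-WRI3, 235 ± 67.7 in GR-ENAP1 and, highest of the GR-TFs, 279 ± 60.9 in GR-LBD16. The lowest GR-ENAP1 line, at 155, lay inside the range of the GR-CHA19 and GR-WRI3 lines. CUE1 was at 58.6 ± 2.15, 66.1 ± 8.88, 84.7 ± 14.5 and 87.4 ± 3.22 CPM in the same order. ENO1 was at 5.72 ± 0.43 CPM in GR-CHA19, 6.64 ± 1.90 in GR-WRI3, 11.6 ± 8.69 in GR-ENAP1 and 14.0 ± 6.27 in GR-LBD16. The highest ENO1 lines, 24.6 CPM in GR-ENAP1 line 1 and 22.2 in GR-LBD16 line 3, each contain a library that stands apart. The ENO1 call was lost when any of 7 mock libraries was left out singly, at adjusted p-values of 0.0543 to 0.0846, namely GR-CHA19 line 5 and line 8 replicate 1, GR-ENAP1 line 1 replicate 2 and line 4 replicate 1, and GR-LBD16 line 11 replicate 1 and line 3 replicates 1 and 2, and it had an adjusted p of 0.0507 without the filter, whereas leaving out both such mock libraries gave 0.0104, with GAPCP-2 then called as well (adjusted p = 0.00280).

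**Figure D5:**
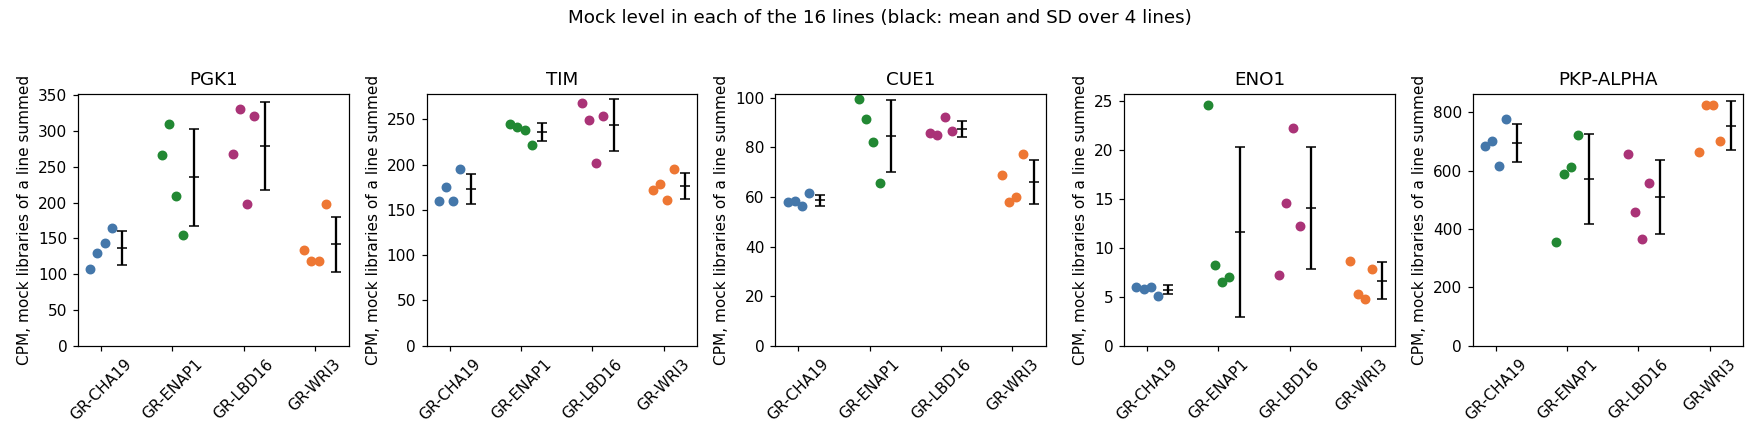
Mock levels of PGK1, TIM, CUE1, ENO1 and PKP-ALPHA by GR-TF (CPM, axes from 0), with each point the summed replicates of a line, 4 lines per GR-TF, and the mean and SD over the lines in black. TIM lies at 160 to 195 CPM in the GR-CHA19 and GR-WRI3 lines and 202 to 268 CPM in the GR-ENAP1 and GR-LBD16 lines. How many of all genes split this way is not given.

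GR-TF and whatever growth or library batch went with it cannot be told apart in this comparison. PORA, which ran with PGK1, TIM and CUE1 across libraries, had medians over the 8 mock libraries of 55.2 CPM in GR-CHA19, 87.3 in GR-WRI3, 352 in GR-ENAP1 and, again highest, 716 in GR-LBD16, and its part in the members' levels was not tested. In the Dex libraries of the same lines 0 members were called by the same edgeR F-test, with 10 of 19366 genes called, and the log2 difference between GR-ENAP1 with GR-LBD16 and GR-CHA19 with GR-WRI3 was 0.32 in place of 0.88 for PGK1, 0.21 in place of 0.46 for TIM and 0.04 in place of 0.47 for CUE1. Of the related lists at the mock level, 4 of 12 other plastid glycolysis genes (AT1G56190, PFK4, FBA1 and PGI1), 11 of 17 cytosolic glycolysis genes, 1 of 7 plastid pyruvate dehydrogenase genes and 9 of 18 plastid fatty acid synthesis genes were called, beside the 38.4% of all genes.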

How the data were processed

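RNA sequencing of 64 libraries was analysed. The authors checked and trimmed the reads (FastQC 0.11.7 and Trim Galore 0.6.0 in the submitters' processing notes), mapped them to TAIR10 with STAR 2.7.0f and deposited unnormalized read counts for every gene in each sequencing run. The 2 runs of a library, which had a chi-square per gene of 1.09 to 1.16 against each other, were summed. Total counts of 2059928 to 7968970 per library set the precision of low members such as ENO1, whose median count was 43.5.

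Positions, exon lengths and sequences came from RefSeq's annotation of TAIR10.1, in which 32548 of the 32833 genes were found. CPM used TMM factors, log2 CPM a prior count of 2 in the search for similar genes, and correlations across libraries log2(CPM + 1). A separate model per GR-TF used edgeR 4.0.16 (R 4.3.3, limma 3.58.1), the robust quasi-likelihood method, a mean per line and treatment, filterByExpr (minimum count 10, total 15) and Benjamini-Hochberg adjustment over all genes tested at 0.05. Dex effects are means over the 4 lines. The GR-TFs were also compared in a fit of all 64 libraries, and mock levels over 16 line sums. The alternatives included DESeq2 1.42.0, glm.nb regression as in the study (MASS 7.3.60.0.1), other normalizations, no filter, an additive design, replicate blocks, Spearman correlation and each library left out. The scripts were tested on simulated data with 2-fold changes in 200 genes. Figures were made with Python 3.11.15 and matplotlib 3.10.9.

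The members, the comparison lists and the tests were chosen with earlier results of these data known. All 10 members are named, with the 3 genes of highest Pearson correlation for each and the listed genes that passed the threshold, at most 5 per list. Libraries were set apart, after the data had been seen, where the median correlation with their GR-TF was under 0.93. The labels describe plates of pooled seedlings as biological replicates. Proteins were not analysed here.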

Additional observations from a re-analysis of the deposited data

Results flagged for a closer look

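Within each GR-TF and treatment, the highest and lowest of the 8 libraries were compared with the rest for each member, and a value was singled out where its gap to the nearest library took up more of the whole range than Dixon's 95% critical value allows. Chance singles out about 1 in 20 such groups. The groups are not independent, since every member was read in the same libraries, so their count was not tested against that rate. Of 80 groups, 20 had such a value, and 18 of the 20 were in the 5 libraries that stand apart. Those 5 were chosen on correlation over all genes, so this share is a description without a test. The rate over all genes is not given here.

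GR-ENAP1 line 1 mock replicate 1 was far from the other 7 in 5 members. It was low for PKP-ALPHA (246 CPM, nearest 553) and PKP-BETA1 (184 CPM, nearest 396), and high for ENO1 (31.2 CPM, nearest 8.86), GAPCP-1 (77.8 CPM, nearest 49.2) and GAPCP-2 (30.5 CPM, nearest 9.98). GR-LBD16 line 3 mock replicate 1 was high for ENO1 (34.6 CPM, nearest 16.4), GAPCP-1 (113 CPM, nearest 56.6), GAPCP-2 (40.7 CPM, nearest 16.2) and PDE345 (227 CPM, nearest 126), and low for TIM (180 CPM, nearest 245).

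GR-CHA19 line 7 Dex replicate 1 was high for ENO1 (22.6 CPM, nearest 8.94), GAPCP-1 (71.0 CPM, nearest 52.3), GAPCP-2 (25.7 CPM, nearest 12.8) and CUE1 (115 CPM, nearest 76.4). GR-WRI3 line 8 Dex replicate 1 was high for ENO1 (28.0 CPM, nearest 13.9) and GAPCP-1 (80.9 CPM, nearest 55.3), and GR-ENAP1 line 2 Dex replicate 1 for GAPCP-1 (50.05 CPM, nearest 40.5) and GAPCP-2 (19.7 CPM, nearest 10.6). In all 5 libraries GAPCP-1, a glycolytic dehydrogenase, was the highest of its group by this measure.

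The other singled-out values were in libraries that do not stand apart. PKp3, the minor pyruvate kinase subunit, was at 23.7 CPM in GR-ENAP1 line 5 Dex replicate 1, with the nearest library at 18.7, and GAPCP-1 at 52.4 CPM in GR-WRI3 line 10 mock replicate 2, with the nearest at 42.2.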

How the results depend on the processing

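Members called with Dex went from 0 with glm.nb to 4 in GR-CHA19, 2 in GR-LBD16 and 6 in GR-WRI3, to 4 in GR-WRI3 without the filter and to 1 there with DESeq2. The shares of all genes called in these settings were 29.1%, 12.4%, 24.1%, 6.01% and 0.142%, in that order. The line by treatment count went from 0 to 2 in GR-CHA19, 2 in GR-ENAP1 and 1 in GR-WRI3 with glm.nb, and to 1 in GR-WRI3 without the filter. The shares of all genes called there were 7.65%, 26.1%, 4.78% and 2.24%. glm.nb gave no fit for 1727 to 2634 genes per GR-TF, among them PKp3 in GR-CHA19 and PDE345 in GR-WRI3. Members called at the mock level went from 4 to 7 with total counts alone and to 0 in the Dex libraries. The share of all genes called went from 38.4% to 41.6% and to 0.0516% in the same settings. The cause of these shifts was not tested. With single libraries left out, Dex calls ran from 0 to 8 in GR-CHA19, 0 to 0 in GR-ENAP1, 0 to 4 in GR-LBD16 and 0 to 6 in GR-WRI3, line by treatment calls from 0 to 7, 0 to 5, 0 to 7 and 0 to 1, and mock level calls from 3 to 6. The mock level calls with single libraries left out stood beside 24.8% to 47.1% of all genes. In the fit of all libraries 20 of the 64 were left out singly and the calls of members stayed at 0, and the others were not run.

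Over all genes, GR-WRI3 calls were 5 with edgeR, 1599 without the filter, 26 with DESeq2, 8 with the additive design, 3 with a block within lines, 12 without the library that stands apart, 2 in the fit of all libraries, 4408 with glm.nb and 1 to 4816 with single libraries left out. glm.nb called 5324 genes in GR-CHA19, 194 in GR-ENAP1 and 2328 in GR-LBD16, where edgeR called 0.

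Reversed estimates were all of uncalled members or of Dex libraries. With total counts alone TIM in GR-ENAP1 was -0.0080 and PKp3 in the GR-WRI3 contrast 0.015. Without the libraries that stand apart, a choice made after seeing the data, PKP-ALPHA was -0.064, PKP-BETA1 -0.051, ENO1 0.23 and GAPCP-2 0.22 in GR-ENAP1, ENO1 0.025, GAPCP-1 0.073 and PDE345 0.075 in GR-LBD16, and PKP-ALPHA 0.012 and PKp3 0.034 in the contrast. The medians were then 0.15 in GR-WRI3 and -0.02 in GR-LBD16. In the Dex libraries the mock-level difference was -0.19 for ENO1, -0.27 for GAPCP-1 and -0.22 for GAPCP-2.

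With single libraries left out, signs turned in GR-ENAP1 for PKP-ALPHA (-0.13 to 0.29), PKP-BETA1 (-0.11 to 0.29), ENO1 (-0.34 to 0.30), GAPCP-2 (-0.16 to 0.35) and TIM (-0.029 to 0.043), in GR-LBD16 for PKp3 (-0.070 to 0.025), ENO1 (-0.48 to 0.025), PGK1 (-0.26 to 0.069), GAPCP-1 (-0.28 to 0.073), TIM (-0.12 to 0.0026) and PDE345 (-0.17 to 0.075), and for PDE345 in GR-CHA19 (-0.0016 to 0.059), PKp3 in GR-WRI3 (-0.039 to 0.11) and PKp3 in the contrast (-0.086 to 0.063).

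Replicate numbers were shared by Dex and mock plates of a line, but their deviations correlated at -0.254 to 0.328 over the 16 lines. No consistent shared deviation was seen, which cannot decide whether the numbers pair the plates. The replicate block changed no call of a member, and a block within lines gave GAPCP-2 in GR-ENAP1 0.042. Of the 30 similar genes named, 10 were shared with Spearman correlation, 5 with mock means alone and 11 without the libraries that stand apart.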
